A study of Mus musculus with 4 samples.

Results

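Mt1, Mt2, Slc30a1 and Slc39a14 were followed through 4 single-cell RNA sequencing libraries of regenerating mouse muscle. They are 4 of the 25827 genes listed in the deposited tables, and each symbol matched 1 row there. The set was selected on the measured levels of Mt1 and Mt2, which lead the genes of a quiescent-like progenitor state, so their levels across cell states are given here as a description, without a test, and Slc30a1 and Slc39a14 were taken with them as zinc transporters. Genotype was not used to choose them, and is tested.

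Metallothioneins are small proteins rich in cysteine that bind zinc and copper, and Mt1 and Mt2 are the widely expressed members of the family. Their transcription is raised by zinc through the transcription factor MTF1, which binds metal response elements in their promoters, and also by glucocorticoids, cytokines and oxidative stress. Slc30a1 encodes ZnT1, which exports zinc across the plasma membrane and is itself a known MTF1 target, and Slc39a14 encodes ZIP14, which imports zinc, iron and manganese and is known to be induced in inflammation.

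The cells were myogenic progenitors (MPs), the descendants of muscle stem cells, sorted from the tibialis anterior muscles of 12-week-old mice on day 6 after injury with cardiotoxin, a snake venom toxin that kills muscle fibres. The sort kept cells positive for alpha7 integrin and negative for CD45, CD31 and Sca1. The controls carried Pax7Cre (labelled WT), which drives the recombinase from the promoter of the muscle stem cell gene Pax7, and the miR-501KO animals carried Pax7Cre together with a floxed miR-501 allele (miR-501fl/Y), so both groups had the Cre allele. Each group had 2 libraries, 1 from each of 2 independent runs, and each library pooled 3 mice, so every value below is that of a pool. The microRNA that was deleted is not a row of the tables, and the genotype labels could not be checked in the data.

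After cells with fewer than 5000 UMIs (unique molecular identifiers, each counted as 1 captured RNA molecule) or fewer than 1000 genes were set aside, 10450 of 16519 barcodes remained, 1829 to 3439 per library with median depths of 25254 to 34579 UMIs. Clustering was done without the 29 genes of the zinc list, the members included, and gave 17 clusters. Clusters 2 and 14 were named quiescent-like from markers such as Pax7, Myf5 and Chodl, clusters 3, 5, 8 and 16 cycling-like, and clusters 4 and 9 committed-like from markers such as Myog and Mymk. Macrophage-like, mural-like and Schwann-like clusters were present despite the sort. Clusters 6, 15 and 16 came almost wholly from miR-501KO replicate 1 (659 of 659, 95 of 97 and 52 of 53 cells), and cluster 7, of 505 cells, had a median of 28.2% mitochondrial UMIs. Between libraries 10 barcodes were shared. Levels are given as counts-per-million values (CPM), the UMIs of a gene relative to all UMIs of the same cells, summed within a library. UMIs come from transcript ends, so a level does not depend on transcript length.

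The control regions of these genes are shown first, because metal response elements are what Mt1, Mt2 and Slc30a1 are known to share. The windows are the 250 bases before the gene start, from RefSeq on GRCm38.p6, and capitals mark the metal response element core, TGCACNC or TGCGCNC, searched on both strands. The window of Mt1 is chr8:94178839-94179088, that of Mt2 is chr8:94172368-94172617 and that of Slc30a1 is chr1:191906531-191906780, all read on the plus strand.
Mt1: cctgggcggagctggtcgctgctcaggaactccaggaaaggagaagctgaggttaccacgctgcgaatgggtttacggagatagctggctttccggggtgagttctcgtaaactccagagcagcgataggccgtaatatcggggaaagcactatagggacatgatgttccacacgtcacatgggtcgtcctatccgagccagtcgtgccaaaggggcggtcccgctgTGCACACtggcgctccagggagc
Mt2: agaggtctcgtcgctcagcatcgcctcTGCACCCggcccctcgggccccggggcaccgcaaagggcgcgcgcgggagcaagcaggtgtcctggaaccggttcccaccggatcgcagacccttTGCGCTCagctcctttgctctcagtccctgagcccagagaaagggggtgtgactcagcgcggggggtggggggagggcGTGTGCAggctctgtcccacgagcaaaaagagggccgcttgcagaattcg
Slc30a1: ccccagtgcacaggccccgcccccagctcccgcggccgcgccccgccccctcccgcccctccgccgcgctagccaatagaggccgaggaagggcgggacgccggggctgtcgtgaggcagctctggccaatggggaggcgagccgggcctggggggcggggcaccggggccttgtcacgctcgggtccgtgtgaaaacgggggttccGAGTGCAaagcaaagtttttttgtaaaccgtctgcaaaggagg
In the table of promoters, Mt1 and Mt2 lie next to each other on chromosome 8, with Mt3 and Mt4 beside them. Mt2 held 3 cores, at -223 to -217, -128 to -122 and -50 to -44 from its start, whereas Mt1 held 1 at -23 to -17 and Slc30a1 held 1 at -43 to -37. At least 1 core was present in 21.4% of the 32851 windows in the table, and at least 3 in 1.26%. The letters of the antioxidant response element, TGACNNNGC on either strand, occurred once in the Mt2 window and once in that of Slc30a1, as in 10.2% of all windows, and a STAT site, TTCNNNGAA, occurred in none of the 3 windows and in 7.02% of all. When the 50 bases after the start were added, the counts of cores rose to 3 for Mt1, 4 for Mt2 and 2 for Slc30a1. Of all windows of that length, 1.97% held 3 or more. In Mt1, 2 of the 3 lay after the start, against 1 of the 4 in Mt2. The contrast between Mt1 and Mt2 thus depended on where the window ended. The annotated starts were used as given and were not checked, so sites beyond the windows may be missed. Of the neighbours, the window of Mt4 held 1 core and that of Mt3 held none, and none was found in that of Mtf1, the gene of the factor itself. These are matches of letters and say nothing of binding in these cells.

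Mt1 and Mt2 were among the abundant messages of the quiescent-like cells. In Pax7Cre replicates 1 and 2 and miR-501KO replicates 1 and 2, in that order, Mt1 stood at 1554, 1738, 1616 and 1788 CPM in quiescent-like cells. In cycling-like cells it stood at 458, 575, 429 and 473 CPM, and in committed-like cells at 313, 323, 279 and 394 CPM. The lowest quiescent-like library was above every cycling-like and committed-like library, while the cycling-like and committed-like ranges were also separate. The ratio of quiescent-like to committed-like cells within a library averaged 2.36 on the log2 scale (SD 0.15, n = 4), or 5.15-fold.

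Mt2 followed the same order. Its levels were 783, 1051, 1044 and 890 CPM in quiescent-like cells, 271, 404, 292 and 295 CPM in cycling-like cells and 172, 205, 192 and 200 CPM in committed-like cells, again without overlap between the 3 states. The quiescent-like to committed-like log2 ratio was 2.29 (SD 0.14), or 4.87-fold, and the ratio to cycling-like cells was 1.58 (SD 0.19), against 1.80 (SD 0.15) for Mt1. Together Mt1 and Mt2 made up 0.262% of the UMIs of quiescent-like cells (SD 0.0195), 0.0799% of those of cycling-like cells and 0.0519% of those of committed-like cells.

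Slc39a14, the importer, was far less abundant and showed the same order of states. It stood at 29.8, 36.9, 43.6 and 37.6 CPM in quiescent-like cells, at 17.0, 18.2, 20.8 and 17.8 CPM in cycling-like cells and at 8.04, 7.96, 8.41 and 8.76 CPM in committed-like cells. The states did not overlap, and the quiescent-like to committed-like log2 ratio was 2.15 (SD 0.20), or 4.42-fold. Slc30a1, the exporter, did not follow the others. Its levels were 3.43, 3.92, 4.94 and 5.17 CPM in quiescent-like cells and 3.85, 4.10, 3.79 and 3.08 CPM in committed-like cells, with overlapping ranges and a log2 ratio of 0.22 (SD 0.42). In cycling-like cells it stood at 3.25, 3.16, 4.45 and 3.70 CPM.

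These contrasts lie within a broad difference between the states. Of the 13631 genes measured in every library of both states, 44.9% were higher in quiescent-like than in committed-like cells in 4 of 4 libraries, as were Mt1, Mt2 and Slc39a14, whereas 28.1% were lower in 4 of 4, and 17.8% had a mean ratio of at least 2-fold. The size of the contrast also depended on how the states were drawn. When cells with Pax7 and without Myog UMIs were set against cells with Myog UMIs, in place of clusters, the log2 ratio was 0.86 (SD 0.26) for Mt1, 1.15 (SD 0.09) for Mt2 and 1.38 (SD 0.30) for Slc39a14. The cells with Myog UMIs numbered 1339 in miR-501KO replicate 1, against 255 committed-like cells there.

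**Figure D1:**
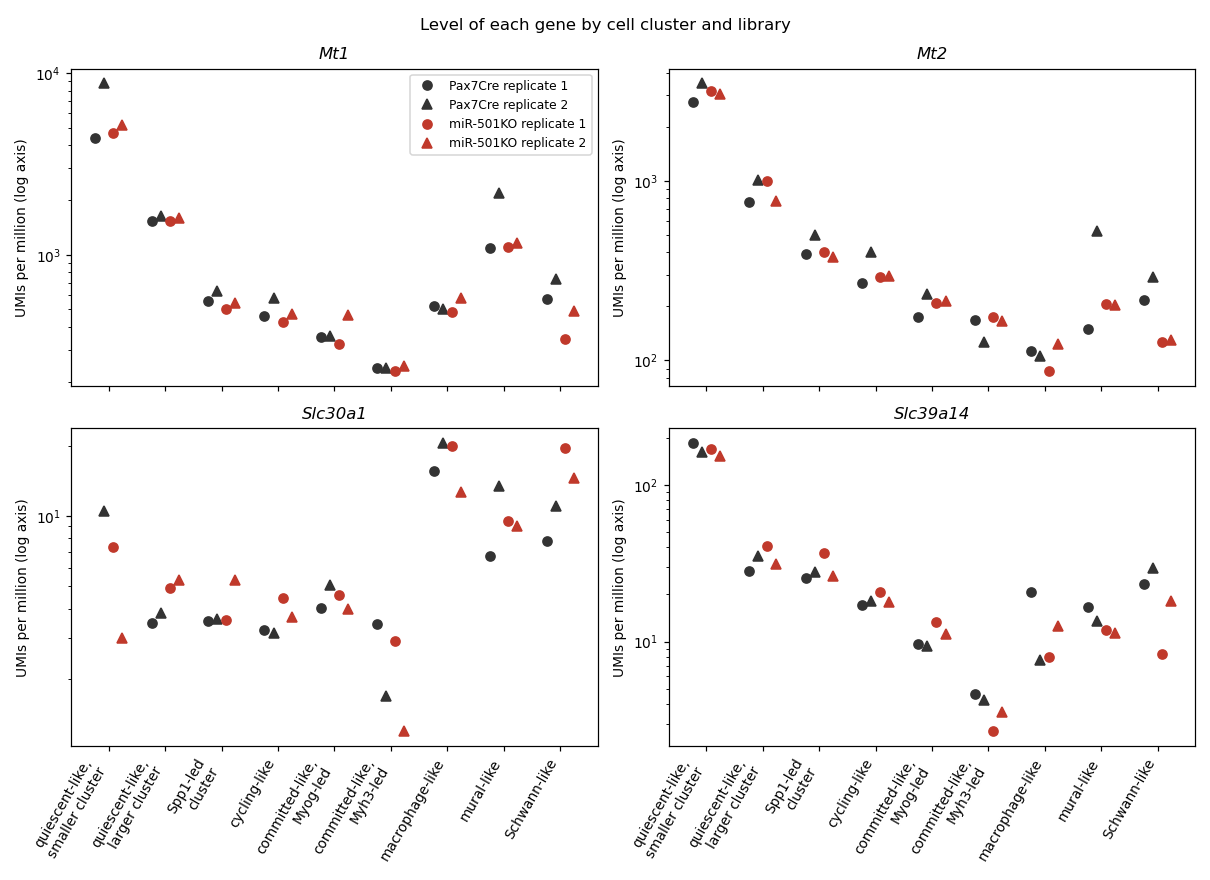
Level of each member (CPM, log axis) in 9 clusters, with 1 point for each library that had at least 10 cells of the cluster. Mt1, Mt2 and Slc39a14 are highest in the smaller quiescent-like cluster, where Slc39a14 stood at 153 to 185 CPM, whereas Slc30a1 is highest in the macrophage-like cells at 12.7 to 20.5 CPM. The Slc30a1 value of 0 in Pax7Cre replicate 1 of the smaller quiescent-like cluster cannot be drawn on a log axis.

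The quiescent-like state held 2 clusters that differed in all members but Slc30a1, whose counts were too few to compare. The larger, cluster 2, had 2035 cells. The smaller, cluster 14, had 107 cells, of which 10, 14, 20 and 63 came from the 4 libraries. It showed 9 of the 11 quiescent markers raised, and Ccl19 and Hsd11b1 were among its leading genes. Mt1 stood at 4390, 8821, 4675 and 5182 CPM in the smaller cluster and at 1526, 1626, 1543 and 1598 CPM in the larger. Pax7Cre replicate 2, with 14 cells, was the high library in the smaller cluster, and the log2 ratio between the clusters was 1.82 (SD 0.42).

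Mt2 stood at 2751, 3515, 3154 and 3035 CPM in the smaller cluster against 763, 1012, 994 and 769 CPM in the larger, a log2 ratio of 1.82 (SD 0.13). Slc39a14 stood at 185, 162, 169 and 153 CPM against 28.3, 34.9, 40.7 and 31.2 CPM, a log2 ratio of 2.32 (SD 0.28) and thus the widest of the 3. For Slc30a1 the smaller cluster held 0, 2, 2 and 2 UMIs, so no ratio is given. Against committed-like cells, the smaller cluster had 17.0-fold more Mt1, 16.2-fold more Mt2 and 20.1-fold more Slc39a14. Without it, the quiescent-like to committed-like log2 ratios were 2.28 for Mt1, 2.19 for Mt2 and 2.01 for Slc39a14.

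Other gene lists differed between the same clusters. The summed level of the 11 cytokine and STAT3 response genes was 4249 to 7333 CPM in the smaller cluster and 2180 to 2452 CPM in the larger. Within it Cebpd, a transcription factor gene of the acute phase response, stood at 1016 to 2758 CPM against 377 to 496 CPM, and Cebpb at 611 to 835 CPM against 233 to 285 CPM. The 10 glucocorticoid-induced genes summed to 4027 CPM on average against 1431 CPM, with Klf9 at 538 to 652 CPM against 230 to 278 CPM. Cebpd is on this list too, at a mean of 1888 CPM against 438 CPM. This sum and that of the cytokine list are therefore not separate. The 12 immediate early and heat shock genes summed to 9485 to 12274 CPM against 4092 to 6478 CPM. The heat shock genes of that list were not raised. Hspa1b averaged 18.3 CPM against 77.7 CPM, Hspa1a 90.8 CPM against 139 CPM and Dnajb1 124 CPM against 126 CPM. Ranges of Fos overlapped, and the rise lay in others such as Fosb, at 1305 to 2081 CPM against 330 to 551 CPM. The 10 oxidative stress genes summed to 1031 CPM against 669 CPM and the 9 interferon genes to 1163 CPM against 688 CPM. The 9 hypoxia genes summed to 720 CPM against 573 CPM. The 10 copper handling genes went the other way, with 378 CPM against 463 CPM.

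Of the markers of other cell types, those of mature myofibres stood higher in the smaller cluster, with 11 genes summing to 1320 CPM (951 to 2099) against 512 CPM (382 to 772). The 11 macrophage markers summed to 16.5 to 66.7 CPM in the smaller cluster and to 21.9 to 37.3 CPM in the larger, and Adgre1, Ptprc and Csf1r were at 0 in the smaller. The 7 fibroblast markers summed to 1877 and 1841 CPM, with Pdgfra at 0 in the smaller cluster, and the 5 T cell markers were all at 0 there. The 6 endothelial markers summed to 7.04 CPM against 1.01 CPM, with Kdr and Emcn at 0 in the smaller, and the 7 mural markers to 328 CPM against 515 CPM. The median depth was 11130 UMIs in the smaller cluster and 23378 UMIs in the larger. The part of depth, myofibre RNA and these lists in the levels of the members was not tested.

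Some clusters without a name separated the members from each other. Cluster 1, with 2183 cells led by Spp1, Ass1 and Lox, held Slc39a14 at 25.5, 27.9, 37.0 and 26.1 CPM. On average this was 0.22 log2 units (SD 0.09) below the larger quiescent-like cluster. Mt1 in cluster 1 was lower by much more, at 559, 631, 504 and 542 CPM, a log2 ratio of -1.497 (SD 0.11). The Mt2 ratio of cluster 1 was -1.08 (SD 0.15). Cluster 7, the shallow cells rich in mitochondrial UMIs, held more Slc39a14 than the larger quiescent-like cluster, at 44.5, 58.1, 45.3 and 60.2 CPM, with Mt1 at only 184 CPM on average (SD 28.6). Cluster 6, from miR-501KO replicate 1 alone, showed the reverse, with Mt1 at 1257 CPM and Slc39a14 at 8.98 CPM. It was left unnamed because markers of both committed-like cells, Myog among them, and macrophage-like cells were raised. Cluster 15, with Mt1 at 915 CPM in that library, had 11 of 11 committed-like markers raised, beside Schwann-like ones. The cells of clusters 6 and 15 are thus not part of the committed-like levels given here.

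Among the committed-like cells, the Myh3-led cluster 9 had the lowest levels. Mt1 stood there at 237, 239, 228 and 245 CPM, and Slc39a14 at 4.65, 4.25, 2.67 and 3.58 CPM. In the Myog-led cluster 4 Slc39a14 stood at 9.71, 9.44, 13.3 and 11.2 CPM, above every library of cluster 9.

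Across the named states, the order of Slc30a1 was unlike that of the other members. It was highest in macrophage-like cells, at 15.6, 20.5, 19.98 and 12.7 CPM, followed by Schwann-like cells at 7.77, 11.1, 19.5 and 14.5 CPM and mural-like cells at 6.72, 13.4, 9.52 and 9.04 CPM. These 3 overlapped, and the Schwann-like and mural-like values rested on 3 to 21 UMIs a library. The lowest of them was above the highest quiescent-like library, and the 3 progenitor states, quiescent-like, committed-like and cycling-like, at mean levels of 4.37, 3.71 and 3.64 CPM, overlapped. For Slc39a14 the Schwann-like cells averaged 19.8 CPM (SD 8.94), the mural-like cells 13.3 CPM (SD 2.41) and the macrophage-like cells 12.2 CPM (SD 6.04), overlapping with each other. For Mt1 the mural-like cells came nearest to the quiescent-like cells, at 1085, 2192, 1109 and 1167 CPM, with Pax7Cre replicate 2 the high library from 22 cells.

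The balance of the metallothioneins varied between clusters. The macrophage-like cells had 4.91 Mt1 UMIs for each Mt2 UMI (SD 0.43, range 4.64 to 5.55 over 4 libraries), and the mural-like cells 5.64 (SD 1.29, range 4.16 to 7.29). Schwann-like cells had 2.90 (SD 0.57, range 2.51 to 3.74). The progenitor states had 1.80 when quiescent-like (SD 0.23), 1.54 when cycling-like (SD 0.12) and 1.70 when committed-like (SD 0.23), so that these 3 overlapped, and cluster 1 had 1.35 (SD 0.10). The clusters from miR-501KO replicate 1 alone had higher ratios, at 2.59 in cluster 6, 2.47 in cluster 15 and 2.53 in cluster 16, which is cycling-like, so clusters 6 and 16 reached the Schwann-like range. In the 3 states as wholes and in cluster 1, every library was below every library of the macrophage-like, mural-like and Schwann-like cells. In macrophage-like cells Mt1, at 524, 505, 481 and 579 CPM, lay near its level in cycling-like cells, whereas Mt2, at 113, 106, 86.7 and 124 CPM, lay below every cycling-like library. How reads that fit both of these similar genes were counted is not given in the sources used here, so the absolute ratios are less certain than their differences.

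**Figure D2:**
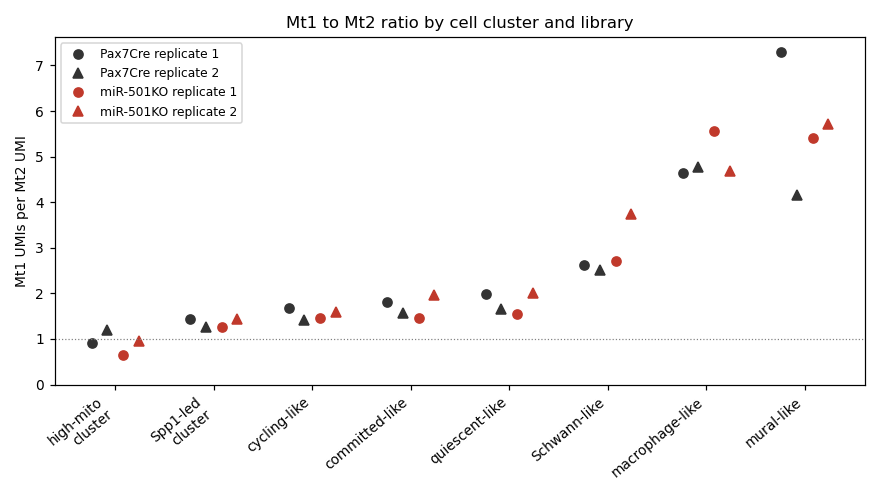
Mt1 UMIs per Mt2 UMI in 8 populations, with 1 point for each library. The progenitor states lie between 1.42 and 2.01 and the macrophage-like and mural-like cells between 4.16 and 7.29.

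Within the quiescent-like state, metallothionein levels were spread widely from cell to cell. For this, each cell was thinned to 5000 UMIs, so that depth was equal. The median quiescent-like cell then had 7.5, 8, 8 and 8 UMIs of Mt1 and Mt2 together, and the 90th percentile was 29.9, 36, 39 and 42 UMIs. The highest single cells had 108, 241, 145 and 146 UMIs. At the other end, 5.72%, 7.05%, 7.94% and 7.38% of the cells had no such UMI. Pax7Cre replicate 1 had the shortest upper tail, with 2.78% of its cells at 50 UMIs or more against 6.39%, 6.01% and 5.90% in the other libraries. At least 10 UMIs were found in 41.2%, 46.0%, 44.2% and 43.9% of quiescent-like cells (Wilson 95% intervals from 37.3% to 50.6% over the 4), against 3.05%, 5.17%, 3.92% and 5.26% of committed-like cells (intervals from 1.91% to 8.64%) and 7.54%, 16.6%, 7.22% and 10.9% of cycling-like cells. Pax7Cre replicate 2 was the high library among cycling-like cells.

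**Figure D3:**
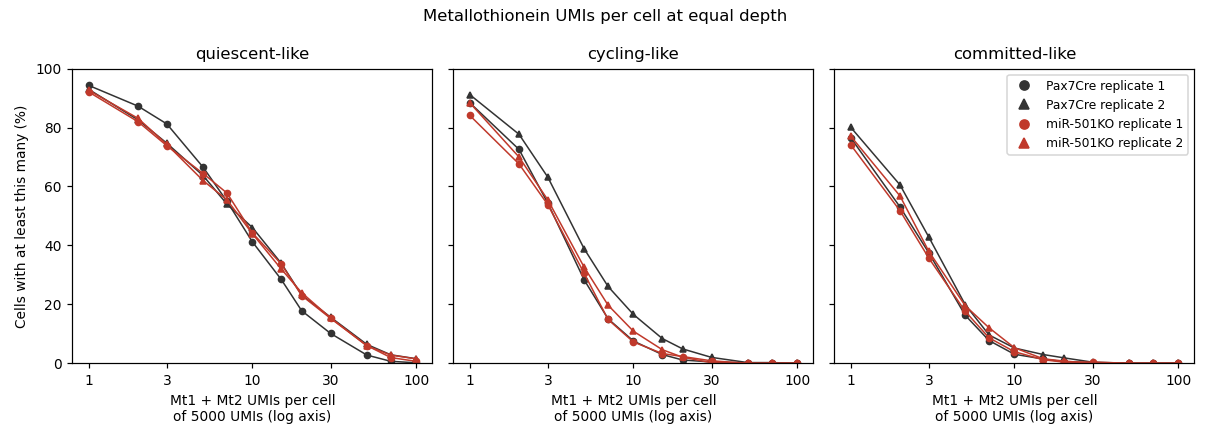
Percent of cells with at least a given number of Mt1 and Mt2 UMIs together, each cell thinned to 5000 UMIs, with 1 line per library and state. At 10 UMIs the quiescent-like lines lie between 41.2% and 46.0% and the committed-like lines between 3.05% and 5.26%.

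In the same thinned cells, Slc39a14 was detected in 13.2%, 16.1%, 18.0% and 18.0% of quiescent-like cells (Wilson 95% intervals from 10.8% to 21.8% over the 4) and in 3.23%, 3.69%, 4.71% and 3.38% of committed-like cells (1.79% to 8.04%). Before thinning, the median depth was 19862 to 26243 UMIs in the quiescent-like and 33093 to 40350 UMIs in the committed-like cells. In the smaller quiescent-like cluster alone, the shares were 50%, 57.1%, 45.0% and 38.1% (23.7% to 78.6%). Slc30a1 was detected in 1.31%, 1.76%, 2.15% and 2.30% of quiescent-like and 0.90%, 2.21%, 2.75% and 1.88% of committed-like cells, with intervals from 0.66% to 3.90% and from 0.38% to 5.56%. No cell type here is known to lack these genes, so free RNA in the droplets could not be measured, and the Slc30a1 shares are too low and too alike to be read as expression in single cells.

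Mt1 and Mt2 varied together from cell to cell. Pearson's r of their log UMIs in thinned quiescent-like cells was 0.61, 0.72, 0.67 and 0.69 in the 4 libraries, over 454 to 612 cells each that share a library and a depth. These cells were of both quiescent-like clusters. The mean r was 0.45 in cycling-like cells, 0.36 when committed-like and 0.32 in macrophage-like cells, where the counts were lower. With the summed metallothionein UMIs, Slc39a14 had a mean r of 0.11 and Slc30a1 of -0.03 in quiescent-like cells, and such weak values in sparse counts are no finding.

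Summed levels gave a clearer view of Slc39a14. The cells of the larger quiescent-like cluster were divided in each library into 4 equal parts by their thinned Mt1 and Mt2 UMIs. From the lowest to the highest part, Slc39a14 went from 23.3 to 30.7 CPM in Pax7Cre replicate 1 and from 29.9 to 49.1 CPM in Pax7Cre replicate 2. In miR-501KO replicate 1 it went from 24.3 to 58.9 CPM and in miR-501KO replicate 2 from 25.04 to 47.9 CPM. The exact Poisson 95% intervals of the lowest and highest parts were separate in 3 libraries and overlapped in Pax7Cre replicate 1, at 18.5 to 29.1 and 25.03 to 37.2 CPM. These intervals cover counting error only. The second part was not above the first in Pax7Cre replicate 2 and miR-501KO replicate 2, so the order was not the same throughout.

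Progenitor genes differed along the same parts. Myod1, the gene of a myogenic transcription factor of activated progenitors, went from 28.4 to 11.3, 32.3 to 13.0, 82.1 to 12.4 and 50.4 to 18.3 CPM from the lowest to the highest part. Pax7 was 183, 204, 201 and 207 CPM in the lowest part and 183, 213, 249 and 225 CPM in the highest, a narrower difference than that of Myod1. The 12 immediate early and heat shock genes summed to 5100, 6241, 5511 and 7056 CPM in the lowest part and to 2685, 3256, 2520 and 4767 CPM in the highest. The cytokine and STAT3 response genes summed to 2051, 2000, 1754 and 1783 CPM in the lowest part and to 2349, 2303, 2321 and 3044 CPM in the highest. Median depth in Pax7Cre replicate 1 was 22226 UMIs in the lowest and 22357 UMIs in the highest part. Within the larger cluster the summed immediate early and heat shock list was thus lower where the metallothioneins were higher. In the smaller cluster both were high, though the heat shock genes of the list were not raised there.

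**Figure D4:**
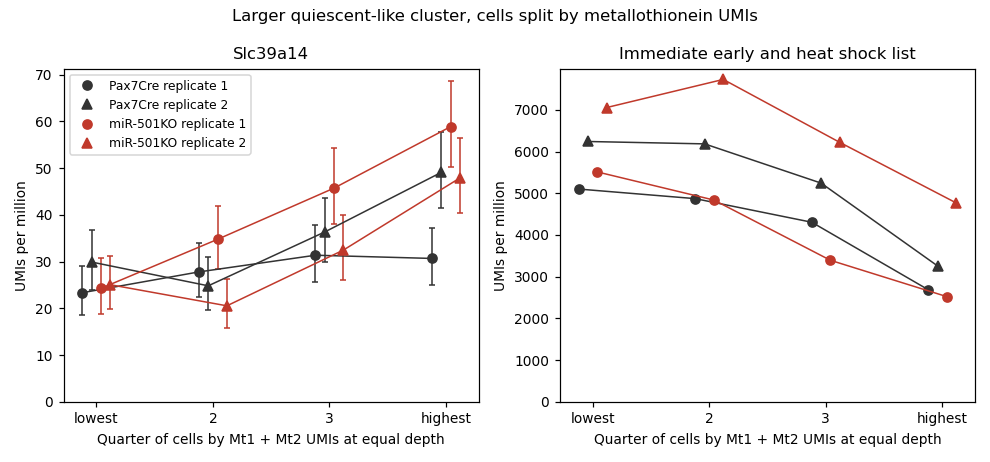
Larger quiescent-like cluster, with its cells divided in each library into 4 equal parts by Mt1 and Mt2 UMIs: level of Slc39a14 (CPM, with exact Poisson 95% intervals as bars) and summed level of the immediate early and heat shock genes (CPM), with 1 line per library. Slc39a14 is higher in the highest than in the lowest part in all 4 libraries, with overlapping intervals in Pax7Cre replicate 1, and the list is lower in all 4.

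The genes whose UMIs varied most like those of Mt1 and Mt2 across quiescent-like cells were led by Sdc4, with a mean r of 0.41 over the 4 libraries. Sdc4 encodes a cell surface proteoglycan of muscle stem cells and is itself one of the quiescent markers used for naming. Arid5b (0.31), the feedback inhibitor of EGF receptor signalling Errfi1 (0.31), the transcription factor genes Cebpb (0.30) and Cebpd (0.27), Ier5 (0.28), Tnfaip2 (0.26), Bach1 (0.26), Sbno2 (0.25) and Pdpn (0.24) came next. The lowest were Fos (-0.26), Postn (-0.22), Mest (-0.22), Cavin2 (-0.21) and Lgals1 (-0.20). Over the 3130 genes compared, the median was -0.01, and r was above 0 in 4 of 4 libraries for 15.7% and below 0 for 19.2%. Both quiescent-like clusters were pooled for these values, so differences between the clusters enter them. Sdc4 averaged 1515 CPM in the smaller and 375 CPM in the larger cluster, whereas Bach1 averaged 265 and 257 CPM. The r within the larger cluster alone was not computed.

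Of the lists, the cytokine and STAT3 response genes had 8 of 11 members with enough UMIs, a median r of 0.15, and 6 above 0 in 4 of 4 libraries, with Pim1 at 0.15, Bcl3 at 0.15 and Stat3 at 0.15. The glucocorticoid-induced list had 5 of 10, a median of 0.14, and 3 above 0 in 4 of 4, namely Errfi1, Cebpd and Klf9 (0.14), of which Cebpd is on both lists. The immediate early and heat shock list had 11 of 12, a median of -0.11, and 7 below 0 in 4 of 4 libraries, among them Jun (-0.17) and Egr1 (-0.14), whereas Jund (0.12) was above 0. The lists of copper handling (3 genes, median -0.04), hypoxia (3 genes, 0.06), interferon (4 genes, 0.04) and oxidative stress (2 genes, 0.07) had few genes with enough UMIs and smaller medians. All of these share depth, library and the clustering, pool both quiescent-like clusters, and carry no p.

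Across cell populations, likeness was measured as Pearson's r of log2(CPM + 1) over the 44 sums of a cluster in a library with at least 50 cells, among 8487 genes. Mt1 and Mt2 had an r of 0.74 with each other. Slc39a14 had an r of 0.57 with Mt2 and 0.36 with Mt1, and was most like Adamts10 (0.89), Cdk14 (0.88), Frmd6 (0.87), Adarb1 (0.87) and St3gal2 (0.85). Slc30a1 had an r of -0.04 with Mt1, -0.47 with Mt2 and -0.00 with Slc39a14, and was most like Acp2 (0.89), Ubl3 (0.87), Synj1 (0.86), Apobec1 (0.85) and Etv3 (0.85). The importer thus had a higher r with Mt2 than with Mt1, and the exporter had little relation to Mt1 and a negative r with Mt2. Sums that share a cluster or a library are not independent. The share of all genes with an r of such size was not counted.

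The remaining zinc genes were taken from a list of 29 with the members. Of the 17 other genes measured in every library of both states, 11 were higher in quiescent-like than in committed-like cells in 4 of 4 libraries and 3 were lower, with a median log2 ratio of 0.62, against 0.17 over all genes. Among importers of the same family as Slc39a14, the log2 ratio was 1.66 (SD 0.18) for Slc39a13, 1.17 (SD 0.17) for Slc39a6, 1.13 (SD 0.09) for Slc39a1 and 0.86 (SD 0.11) for Slc39a7. Slc39a1, at 96.2 CPM in all cells, and Slc39a7, at 63.3 CPM, were the most abundant transporters of the list and stood above Slc39a14 at 21.7 CPM. Lower down, Slc39a10 had 0.62, Slc39a3 had 0.54, Slc39a9 had 0.45 and Slc39a11, which varied in sign over libraries, had 0.19. Slc39a8, nearest to Slc39a14 in the family, had 2.48 (SD 1.49) at under 1.2 CPM in each of the 3 states.

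Of the exporter family, Slc30a7, which loads zinc into the Golgi, had a log2 ratio of 1.37 (SD 0.13) and Slc30a5 had 0.67 (SD 0.11), while Slc30a4 (0.25) and Slc30a6 (0.17) varied in sign over libraries. Slc30a9 had -0.43 (SD 0.14), and Mtf1, at 15.5 CPM in all cells, had -0.34 (SD 0.09), so both were lower in quiescent-like cells in 4 of 4 libraries. Mt3, the metallothionein known from brain, stood at 9.81 CPM in quiescent-like and 4.29 CPM in committed-like cells, a log2 ratio of 1.26 (SD 0.66). Slc39a2 (-1.73, SD 0.97) and Slc30a2 rested on 54 and 79 UMIs in all. Mt4 had 34 UMIs in all cells together and Slc30a8 had none.

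Deletion of miR-501 was then asked about directly, by comparing summed UMIs of the 2 miR-501KO with the 2 Pax7Cre libraries. None of the members passed the test (edgeR's quasi-likelihood test, Benjamini-Hochberg adjusted p under 0.05 over all genes tested) in all cells, where 0.0% of 15725 genes did, or in the cycling-like class, with 0.0% of 13387, or in the committed-like class, with 0.0% of 12123. In quiescent-like cells 0.00804% of 12434 genes passed, which was Ccn2, named here after its value was seen, and no member. No member had an unadjusted p under 0.05 in these 4 populations by edgeR or by DESeq2, and DESeq2 called none of them. Over all genes edgeR gave an unadjusted p under 0.05 for 440, 402, 316 and 328 genes in all cells and in the quiescent-like, cycling-like and committed-like classes, and DESeq2 called 12, 2, 2 and 1 genes. With 2 pools a group, the p-values measure only the spread between these pools.

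Metallothionein levels overlapped between the genotypes in all cells and in each of the 3 progenitor states, the populations tested. In quiescent-like cells Mt1 averaged 1646 ± 130 CPM (SD, n = 2) in Pax7Cre and 1702 ± 121 CPM in miR-501KO, a fitted log2 fold change of -0.02 (SE 0.17, adjusted p = 0.999 in edgeR). Mt2 averaged 917 ± 190 and 967 ± 109 CPM, a log2 fold change of 0.01 (SE 0.17). In cycling-like cells the log2 fold changes were -0.20 (SE 0.15) for Mt1 and -0.21 (SE 0.16) for Mt2, and in committed-like cells 0.06 (SE 0.19) and 0.03 (SE 0.14). Over all cells they were 0.11 (SE 0.12) and -0.02 (SE 0.18). The Mt1 value over all cells changed sign to -0.05 when clusters 6, 15 and 16 were left out, in which Mt1 stood at 1257, 915 and 492 CPM.

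In quiescent-like cells both transporters stood higher in both miR-501KO libraries than in either Pax7Cre library, as did 19.7% of all genes tested, and neither passed the test. The same held for both in all cells, where 15.4% of genes did so, at log2 fold changes of 0.22 (SE 0.15) for Slc30a1 and 0.10 (SE 0.09) for Slc39a14. In committed-like cells it held for Slc39a14, as for 17.2% of genes, at 0.07 (SE 0.18). A share of this size over all genes leaves nothing particular to the members in these orders. In quiescent-like cells Slc39a14 averaged 33.4 ± 5.01 CPM in Pax7Cre and 40.6 ± 4.24 CPM in miR-501KO, a log2 fold change of 0.21 (SE 0.16, unadjusted p = 0.188 and adjusted p = 0.999 in edgeR). Within run 1 it went from 29.8 CPM in Pax7Cre to 43.6 CPM in miR-501KO, and within run 2 from 36.9 to 37.6 CPM, so that most of the difference came from run 1. Slc30a1 averaged 3.67 ± 0.35 and 5.06 ± 0.16 CPM, a log2 fold change of 0.39 (SE 0.28, unadjusted p = 0.183 and adjusted p = 0.999 in edgeR), from 47 and 48 UMIs in the Pax7Cre and 58 and 65 UMIs in the miR-501KO libraries. Within run 1 it went from 3.43 to 4.94 CPM and within run 2 from 3.92 to 5.17 CPM.

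For Slc30a1 the miR-501KO libraries were both above the Pax7Cre libraries in cycling-like cells too, as for 11.7% of genes, at a log2 fold change of 0.32 (SE 0.21). In committed-like cells both were below, as for 10.5% of genes, at -0.24 (SE 0.27). That value was -0.13 without miR-501KO replicate 2, -0.37 without miR-501KO replicate 1 and -0.53 at a finer clustering (Leiden resolution 1.0). The difference of the genotype effect between quiescent-like and committed-like cells was 0.63 (SE 0.31, unadjusted p = 0.0780 and adjusted p = 1 in edgeR), and that between cycling-like and committed-like cells was 0.57 (SE 0.27, unadjusted p = 0.0686 and adjusted p = 1). No gene was called for either difference (0.0% of 13049 and 0.0% of 13807), with an unadjusted p under 0.05 for 381 and 393 genes. The difference of the genotype effect of Slc39a14 between quiescent-like and committed-like cells was 0.15 (SE 0.18).

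**Figure D5:**
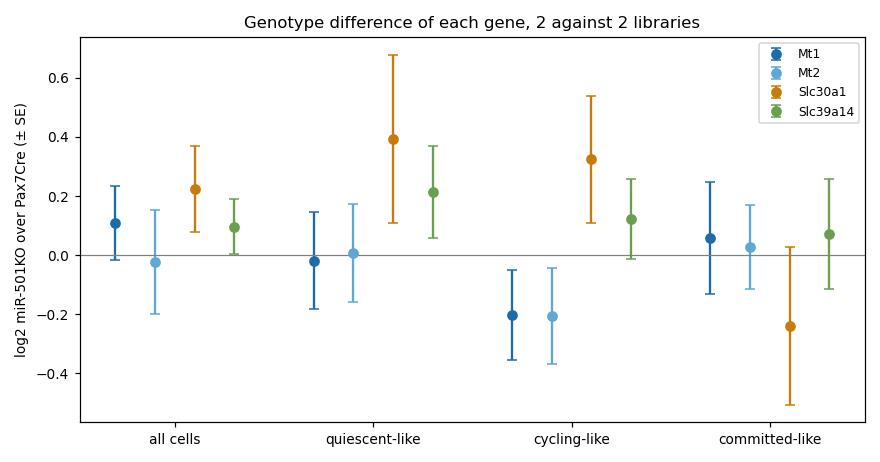
Log2 fold change of miR-501KO over Pax7Cre for each member in all cells and in each of the 3 progenitor states, from edgeR on library sums, with bars of 1 standard error. Mt1 and Mt2 lie between -0.21 and 0.11 and the widest value is that of Slc30a1 in quiescent-like cells, 0.39, and no member passed the test.

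No conclusion on genotype is drawn from the shares of cells, because 2 libraries against 2 cannot give a small permutation p. For both transporters, both miR-501KO shares lay above both Pax7Cre shares at equal depth, but not without thinning. How many of all genes do so was not counted. At equal depth, 18.0% of quiescent-like cells had a Slc39a14 UMI in miR-501KO and 14.7% in Pax7Cre on average, a difference of 3.37 percentage points (2-sided exact permutation p = 0.333, the smallest that 2 libraries against 2 can give), and without thinning the shares were 49.9% and 49.4%, a difference of 0.565 points (exact permutation p = 1). The Slc30a1 shares, 2.22% and 1.53% at equal depth (exact permutation p = 0.333), were too low to be compared as expression. At least 10 UMIs of Mt1 and Mt2 together were found in 44.1% of miR-501KO and 43.6% of Pax7Cre quiescent-like cells at equal depth (exact permutation p = 1), and in 78.1% and 81.5% without thinning. Of the 29 zinc genes, 22 were tested over all cells, with a median log2 fold change of 0.03, and none was called or had an unadjusted p under 0.05 in edgeR.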

How the data were processed

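The deposited files are UMI count tables, 1 per library (gene by barcode), made by the authors with Cell Ranger, whose version in the table headers is 6.0.2, on GRCm39 per the labels. Processing notes also name Seurat. The authors pooled 3 mice per library and did not merge libraries in the files. How multimapped reads were counted is not given in the sources used here. Total counts were 73665012 to 117527749 UMIs per library, and intervals from counts cover counting error only. No 2 libraries of a group looked like 1 library deposited again, since the chi-square of their gene counts was 66.4 and 63.5 times its degrees of freedom.

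The count of cells that the study states under this filter is lower than the one found here, and the step between them is not given in the sources used here. Cells were clustered in scanpy 1.11.5 (2000 variable genes, 30 principal components, 15 neighbours, Leiden resolution 0.5). A cluster was named from at least 3 markers raised 1.5-fold. Scrublet marked 20 of 10450 cells as doublets, too few to rely on, and leaving out the 5% with the highest scores was used instead. UMIs were summed per library and class and tested with edgeR 4.0.16 (R 4.3.3, TMM, filterByExpr, quasi-likelihood), with DESeq2 1.42.0 as an alternative. Only the edgeR test was also run on simulated data. Single shares were compared by exact permutation over libraries.

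Replicate numbers are run numbers. The correlation of the difference between runs in Pax7Cre with that in miR-501KO, across genes, was 0.23 over all cells, 0.01 for the quiescent-like class, -0.01 for the cycling-like and -0.17 for the committed-like. The labels do not say what a run shares.

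The members, the gene lists and the tests were chosen with earlier results of these data known. Other genes are named by rule: zinc genes that passed the count filter, the 10 genes most and 5 least like Mt1 and Mt2 across quiescent-like cells, the 5 most like each transporter across clusters, and up to 4 genes a list with the largest r. Genes named in clusters 1, 14, 4 and 9 lead them. Myod1, Pax7 and the single list genes in cluster 14 were chosen after their values were seen. Those list genes are Cebpd, Cebpb, Klf9, Fos, Fosb, Hspa1a, Hspa1b and Dnajb1. Promoter sequences are from RefSeq, and 3 of the 4 members had an entry.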

Additional observations from a re-analysis of the deposited data

How the results depend on the processing

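No member was called in any population under any alternative run. With the replicate number as a block, 0 members were called in each population, while the calls over all genes went from 0, 1, 0 and 0 to 0, 48, 29 and 22 in all cells and the quiescent-like, cycling-like and committed-like classes. Leaving out 1 library gave 0 to 189 calls in quiescent-like cells (118 without miR-501KO replicate 1, 189 without miR-501KO replicate 2), 0 to 40 in cycling-like cells (40 without Pax7Cre replicate 2, 19 without Pax7Cre replicate 1), 0 to 93 in committed-like cells (93 without Pax7Cre replicate 1, 68 without Pax7Cre replicate 2) and 0 to 3 in all cells. Without a filter on low counts, 51 genes were called in cycling-like cells. The share of all genes called is thus unstable with so few libraries. The cause was not tested for any of these.

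Near 0, fitted log2 fold changes of genotype changed sign. Mt1 in all cells was -0.0535 without the clusters from 1 library. Mt1 in quiescent-like cells was 0.0698 with cells of at least 2000 UMIs, 0.00074 without the highest Scrublet scores, 0.00025 at Leiden resolution 0.3 and 0.0413 at 1.0. Mt2 in quiescent-like cells was -0.0024 with no filter on low counts and -0.0813 without the smaller cluster (chosen after seeing the data), and in committed-like cells -0.0267 without the highest Scrublet scores. At resolution 1.0, Slc39a14 in committed-like cells was -0.12 and the Mt2 difference between quiescent-like and committed-like cells was 0.0288. Leaving out 1 library gave -0.019 to 0.24 for Mt1 and -0.26 to 0.25 for Mt2 in all cells, -0.15 to 0.10 and -0.16 to 0.20 in quiescent-like cells, -0.44 to 0.061 for Mt2 in cycling-like cells, and -0.25 to 0.31 for Mt1 and -0.0792 to 0.13 for Mt2 in committed-like cells. At resolution 1.0 the Slc30a1 difference between quiescent-like and committed-like cells was 0.92 (unadjusted p = 0.0157, adjusted p = 0.981 in edgeR).

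The quiescent-like to committed-like log2 ratio was 2.12 for Mt1 and 2.11 for Mt2 with cells of at least 2000 UMIs. It was 2.54 and 2.44 at resolution 0.3, and 2.11 and 2.03 at 1.0. With the gates on Pax7 and Myog, from mean UMIs at equal depth, it was 0.86 and 1.15. For Slc39a14 it was 2.44 as mean UMIs at equal depth and 1.38 with the gates. The quiescent-like to cycling-like ratio was 0.0243 for Slc30a1 with at least 2000 UMIs, and for Slc39a14 1.15 at resolution 0.3 and 0.86 without the smaller cluster. The genotype difference in the share of quiescent-like cells with at least 10 metallothionein UMIs was -1.34 points at resolution 0.3, -0.31 at 1.0, -1.09 without the smaller cluster, -3.38 without thinning, and -2.10 without replicate 1 to 3.03 without replicate 2. The other 153 summary values kept their direction, and their side of the threshold where one was tested. Depth limits Slc30a1 most, with 47 to 65 UMIs per library in quiescent-like cells.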
